A study of Caenorhabditis elegans with 2 samples.

Results

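Regions inside protein-coding genes of the autosomes of *Caenorhabditis elegans*, away from annotated gene starts, were described from chromatin immunoprecipitation with sequencing (ChIP-seq) of CEH-82, a homeobox protein tagged with green fluorescent protein (eGFP-ceh-82). A region was a member when its summit, the position of highest signal, lay inside a protein-coding gene of chromosomes I to V and not between 1000 bp upstream and 200 bp downstream of any protein-coding gene start. Of the 9070 regions in the authors' list of peaks and background made from both replicates together, 3545 met this rule. Of these, 71 were also in the authors' thresholded list of 537 regions, 3472 were not, and 2 overlapped a thresholded region without being one and were left out. The 71 are called thresholded and the 3472 remaining. The remaining members can thus be background as well as weaker peaks. Coordinates are 1-based on ce11, the assembly also called WBcel235.

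Both samples belonged to 1 group and were 2 biological replicates of strain OP212, with the genotype unc-119(ed3) III; ddEx58. Whole animals of mixed sex were taken at the L2 larva stage, so a region can come from any tissue. By worm nomenclature ddEx58 names an extrachromosomal array, and such arrays are lost from some cells, while the labels also speak of an insertion that targets ceh-82. The labels give ceh-82 as the antibody. No untagged strain, other stage or other genotype was analysed here. The question the lists answer is therefore where the thresholded regions lie within genes and how they differ from the weaker regions listed beside them.

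Introns of *C. elegans* genes can hold enhancers, promoters of shorter transcripts of the same gene, and whole noncoding genes nested within the host. Nested genes include small nucleolar RNA (snoRNA) genes, whose products guide chemical modification of ribosomal RNA, small nuclear RNA (snRNA) genes, whose products act in splicing, and transfer RNA (tRNA) genes. Homeodomain proteins commonly bind short AT-rich sites with a TAAT core. The binding site of CEH-82 itself was not determined here.

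The sequences below show the 3 kinds of place that most thresholded regions fell into, each as the summit with 100 bp on either side, read 5′ to 3′. The first pair are the strongest thresholded regions at nested snoRNA genes. They are printed on the strand of the nested gene, which is in capitals: the snoRNA gene ZK994.7 in pxn-1 and the snoRNA gene C51F7.4 in frm-7.
pxn-1, chrV:8500446-8500646, + strand: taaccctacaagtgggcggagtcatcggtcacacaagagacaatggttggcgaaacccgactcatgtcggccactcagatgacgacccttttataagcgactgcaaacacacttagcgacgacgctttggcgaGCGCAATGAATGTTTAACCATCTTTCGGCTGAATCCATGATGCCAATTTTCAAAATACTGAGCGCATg
frm-7, chrV:12303524-12303724, + strand: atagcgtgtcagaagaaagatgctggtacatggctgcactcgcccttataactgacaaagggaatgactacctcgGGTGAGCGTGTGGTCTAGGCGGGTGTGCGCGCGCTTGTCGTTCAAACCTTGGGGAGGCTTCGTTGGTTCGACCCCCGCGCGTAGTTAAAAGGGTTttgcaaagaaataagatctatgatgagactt

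The next 3, in scc-2, zfp-1 and pde-4, lay upstream of a transcript start inside the gene and differ in whether they hold the short sequences marked. The last 4 lay in introns with neither a nested noncoding gene nor an internal transcript start, and unc-119 is among them because the labels give a mutation of this gene. Here the strand is that of the host gene. Capitals mark matches to GAGAGAGA or to CTGCGTCTC on either strand, the 2 sequences described further on, and the window in scc-2 holds neither.
scc-2, chrII:255254-255454, - strand: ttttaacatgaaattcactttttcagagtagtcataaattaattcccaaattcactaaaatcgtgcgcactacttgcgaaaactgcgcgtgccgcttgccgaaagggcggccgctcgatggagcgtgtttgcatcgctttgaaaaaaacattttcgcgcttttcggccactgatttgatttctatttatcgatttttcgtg
zfp-1, chrIII:8801993-8802193, + strand: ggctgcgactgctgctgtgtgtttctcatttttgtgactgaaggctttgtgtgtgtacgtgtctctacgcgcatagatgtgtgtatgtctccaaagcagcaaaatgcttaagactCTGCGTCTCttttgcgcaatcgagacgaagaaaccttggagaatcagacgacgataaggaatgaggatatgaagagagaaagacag
pde-4, chrII:7642176-7642376, - strand: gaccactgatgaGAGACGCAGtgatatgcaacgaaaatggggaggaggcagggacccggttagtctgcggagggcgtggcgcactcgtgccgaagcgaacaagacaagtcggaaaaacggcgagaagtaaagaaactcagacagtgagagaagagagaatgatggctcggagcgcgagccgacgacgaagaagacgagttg
Y111B2A.12, chrIII:12612587-12612787, + strand: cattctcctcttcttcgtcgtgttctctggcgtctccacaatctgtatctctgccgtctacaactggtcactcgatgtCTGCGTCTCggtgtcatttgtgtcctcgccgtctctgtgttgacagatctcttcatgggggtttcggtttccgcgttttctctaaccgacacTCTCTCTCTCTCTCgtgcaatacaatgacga
pqn-41, chrIII:1925260-1925460, + strand: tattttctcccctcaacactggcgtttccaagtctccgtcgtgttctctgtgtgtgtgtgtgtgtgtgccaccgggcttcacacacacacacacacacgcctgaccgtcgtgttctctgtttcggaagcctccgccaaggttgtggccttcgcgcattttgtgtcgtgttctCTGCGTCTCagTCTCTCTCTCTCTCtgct
mdt-26, chrII:5661820-5662020, + strand: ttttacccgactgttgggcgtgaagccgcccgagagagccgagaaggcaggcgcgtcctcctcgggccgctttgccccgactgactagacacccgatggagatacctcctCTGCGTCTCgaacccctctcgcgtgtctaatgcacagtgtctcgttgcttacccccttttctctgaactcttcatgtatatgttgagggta
unc-119, chrIII:10905222-10905422, + strand: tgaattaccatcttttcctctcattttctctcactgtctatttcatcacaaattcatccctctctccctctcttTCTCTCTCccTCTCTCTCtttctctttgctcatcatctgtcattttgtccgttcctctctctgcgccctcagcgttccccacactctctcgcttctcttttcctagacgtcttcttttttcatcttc

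Gene-body regions passed the authors' threshold less often than regions in other places. The share of thresholded regions was 2% (71 of 3545) among autosomal gene-body regions, against 8.43% (466 of 5525) among all other pooled regions, 5.79% (421 of 7272) over all autosomal regions and 5.92% (537 of 9070) over the whole list. On autosomes it was 12.8% in promoter windows and 4.04% in intergenic sequence. On X it was 13.8% in promoter windows, 7.19% in intergenic sequence and 2.31% in gene bodies. The low share in gene bodies was thus common to autosomes and X. The signal value, which is the authors' own score per region with no stated scale, had a median of 26.8 (range 21.1 to 64.8) in thresholded members and of 8.67 (up to 21.02) in remaining members. The 537 thresholded regions were the 537 highest of the pooled list by this value, which makes every comparison between the classes a comparison by strength. Sequencing depth is unknown, because only peak lists were used.

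The threshold fell at a place where values were continuous. The 3 weakest thresholded members, in mnk-1, ppfr-1 and catp-7, each had a signal value of 21.14. These genes encode a MAP kinase-interacting kinase, a regulatory subunit of a protein phosphatase and a cation-transporting ATPase. The 3 strongest remaining members had 21.02 in Y57G11C.22, 20.88 in C04A2.15 and 20.75 in gldi-8. The region in C04A2.15 covered a nested tRNA gene. Members just inside and just outside the threshold therefore differed little in signal.

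Thresholded members lay in introns, and almost none lay in coding sequence. A summit was counted as exonic when it fell in an exon of any transcript of any protein-coding gene, and as intronic otherwise. By this count 63 of 71 thresholded members (88.7%) were intronic, against 1931 of 3472 remaining members (55.6%). Of these intronic members, 13 of the 63 (20.6%) lay in no intron of the host transcript with the longest coding sequence. Among the 1931 it was 149 (7.72%), so part of the intronic count rests on other transcripts of the host. Introns made up 56.7% of all autosomal bases that meet the rule. The intronic share of the remaining members was thus near that of the bases, and that of the thresholded members was not. Coding exons held 2 thresholded members (2.82%), against 1238 remaining members (35.7%) and 37.9% of the bases. Sequence annotated as 3′ untranslated held 1 thresholded member (1.41%), against 246 remaining members (7.09%) and 4.14% of the bases. There the remaining members did not follow the bases.

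The same direction was seen in each replicate alone and on the X chromosome. Each replicate's own list held 30000 regions, peaks and background together. With the strongest 537 of them in place of the thresholded list, the intronic share in replicate 2 was 86%, against 55.1% for the other 13065 that met the rule. In replicate 1 it was 72%, against 54% for the other 12713. The difference in replicate 1 was thus the smaller of the 2, at 18 percentage points against 31. On X, 18 of 19 thresholded gene-body regions (94.7%) were intronic, against 466 of 802 remaining ones (58.1%). These X regions were not used by the membership rule.

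**Figure D1:**
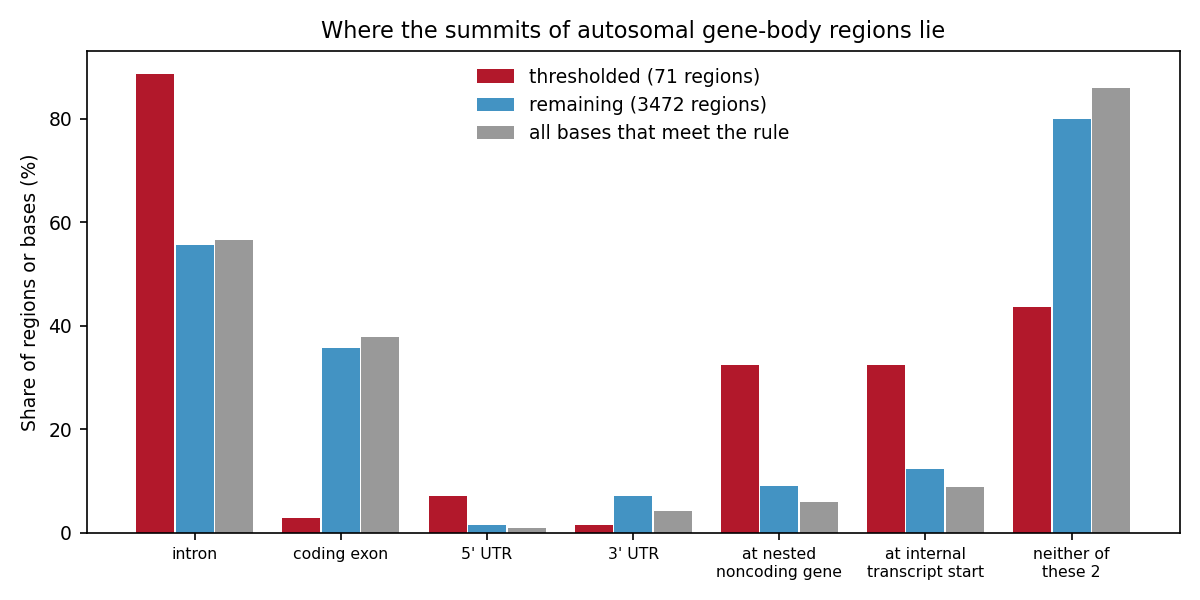
Share of summits (vertical axis, percent) in each kind of place for the 71 thresholded members, the 3472 remaining members and all autosomal bases that meet the rule. The thresholded members stand at 88.7% in introns and 2.82% in coding exons, while the remaining members follow the bases closely in both.

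The 8 exonic thresholded members were mostly not in coding sequence. Sequence annotated as 5′ untranslated held 5 of them (7.04% of the thresholded members), against 1.47% of the remaining members and 1.01% of the bases. The highest signal value of all members, 64.8, was in this group, in C34C12.2 at chrIII:3456286-3456549, and that region had values of 15.9 in the replicate 1 list and 49.1 in the replicate 2 list. The values of the replicate lists have no stated common scale and serve here only to show that a region was listed. The second was in egl-30, which encodes the Gq alpha subunit of heterotrimeric G proteins, with 46.2 at chrI:1836639-1836902, its summit 120 bp past an internal transcript start. The others named by signal were C05D11.8 with 29.7, in 3′ untranslated sequence, K09F6.11 with 25.8, in coding sequence, and rsbp-1 with 25.2, in 5′ untranslated sequence. The other coding one, in dos-3, which encodes a Notch ligand-like protein, was named after its values were seen and had 22.9. Neither coding region was strong in both replicates: K09F6.11 ranked 218 in replicate 1 and 3867 in replicate 2, and dos-3 was absent from the replicate 1 list and ranked 243 in replicate 2.

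The introns that held thresholded members were mostly long, and most of the short ones held a nested noncoding gene. For the transcript with the longest coding sequence of each host gene, 50 of the 63 intronic thresholded members lay in one of its introns. The median length of those introns was 3029 bp, against 1002 bp for the 1782 remaining members so placed. The median intronic autosomal base lies in an intron of 924 bp. Introns over 1000 bp held 36 of the 50 (72%), against 894 of the 1782 (50.2%), and introns over 3000 bp held 25 (50%), against 468 (26.3%). Of the 14 thresholded members in introns of 1000 bp or less, 12 were at a nested noncoding gene, against 113 of 888 remaining members in such introns. A single thresholded member in a short intron was at neither a nested gene nor an internal transcript start. It lay in an intron of 386 bp of mdt-26, which encodes a Mediator subunit, with a signal value of 41.4.

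First introns were not much favoured. They held 15 of the 50 thresholded members (30%), against 438 of the 1782 remaining ones (24.6%). Host genes of thresholded members had a median length of 9717 bp, against 6028 bp for remaining members, and both were well above the 1964 bp of all autosomal protein-coding genes. A longer gene offers more bases that meet the rule, so hosts of either class are long by construction. Summits of thresholded members had a median place of 39% of the way along the host, against 52% for remaining members.

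Nested noncoding genes accounted for 23 of the 71 thresholded members. A noncoding gene, pseudogenes included, was counted as nested when it lay wholly inside a protein-coding gene, and a summit was counted when it lay in the nested gene or within 200 bp of it. The 23 thresholded members (32.4%) compare with 315 remaining members (9.07%) and with 5.88% of the bases. All 23 were in introns. Summits within the nested gene itself made up 14 (19.7%) of the thresholded members, against 92 (2.65%) of the remaining members and 1.32% of the bases. In the strongest 537 regions of each replicate alone the share was 36% against 6.93% in replicate 2 and 17.8% against 6.9% in replicate 1, so the thresholded share lay above the remaining one in both, by unequal amounts.

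The kinds of nested gene were not alike. The snoRNA and snRNA genes together accounted for 12 thresholded members (16.9%), against 35 remaining members (1.01%) and 0.253% of the bases. Genes annotated only as ncRNA were near 15 thresholded members (21.1%), against 184 remaining members (5.3%) and 2.27% of the bases, and a region can be near more than 1 gene. For tRNA genes the classes were closer, with 1 thresholded member (1.41%) and 34 remaining members (0.979%), although tRNA genes took only 0.178% of the bases. The single thresholded member near a tRNA gene was in spe-15, which encodes a class VI myosin, and was named after its values were seen. Genes of piRNAs, the small RNAs that guard the germ line, were near 0 thresholded members and 76 remaining ones (2.19%), with 2.77% of the bases, and microRNA genes were near 0 and 9. A count of 0 among 71 does not show that such genes are avoided.

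Seen from the side of the nested genes, most had no thresholded region. Of the 179 nested snoRNA genes that had any base meeting the rule within 200 bp, 11 (6.15%) had a thresholded summit there. The corresponding counts were 2 of 63 snRNA genes (3.17%), 21 of 2379 ncRNA genes (0.883%), 1 of 185 tRNA genes (0.541%) and 0 of 5670 piRNA genes. Thresholded summits were thus at a minority of every kind, and most often at snoRNA genes.

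Among the regions at snoRNA genes, the highest signal value was at ZK994.7 in pxn-1, a peroxidasin gene whose product crosslinks basement membrane. There the signal value was 47.1 at chrV:8500414-8500677, with 10.8 in replicate 1 and 34.7 in replicate 2, and the summit was at -33 bp from the nested start, where negative is upstream. The next was at C51F7.4 in frm-7, a FERM domain gene, with 42.95 in the pooled list, 12.9 in replicate 1 and 30.4 in replicate 2. Its summit lay inside the snoRNA gene, 25 bp past its start. Both regions ranked among the strongest 537 of each replicate.

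The next region was in lin-42, whose product is related to the circadian protein Period and times larval moults. It had a signal value of 38.3 and a summit inside the ncRNA gene F47F6.15, 75 bp past its start. T28B11.1 had 37.2, with the summit 73 bp past the start of T28B11.18. T24B8.3 had 34.6 and a summit at -179 bp from T24B8.22, the farthest upstream of the 23. The following ones were pcyt-2.1, which encodes an enzyme of phosphatidylethanolamine synthesis, with 31.2 and the summit on the first base of the snoRNA gene Y37E3.20, and F58G1.7 with 30.9, inside F58G1.11 and next to the snRNA gene sup-6. In twk-5, a potassium channel gene, a summit with 30.5 lay 88 bp past the start of the snoRNA gene B0334.12. In let-526, which encodes a subunit of the SWI/SNF chromatin remodelling complex, a summit with 28.95 lay inside the antisense RNA gene F48C1.15, 650 bp past its start. Of the members named after their values were seen, the intron of ints-8, an Integrator subunit gene, holds rpr-1, the gene of the RNase P RNA that trims tRNA precursors, and a summit with 23.8 lay 10 bp past its start.

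Thresholded members had their summit close to a nested start more often than remaining members did, but the classes also differed in the kinds of nested gene. The nearest nested start was within 100 bp of the summit for 19 of the 23 thresholded members, against 162 of the 315 remaining ones. The median distance was 11 bp past the start (range -179 to 650, negative upstream), against 21 bp for the remaining members. With a snoRNA gene nearest, the medians were -31 bp (SD 94.3, 9 thresholded members) and -21 bp (SD 106.5, 29 remaining members). With a gene annotated as ncRNA nearest, they were 31 bp (SD 92.2, 11 members) and 33 bp (SD 319.9, 151 members). Within these kinds the medians were thus close, and the part of the kinds in the difference was not tested. The nested gene was on the strand of its host in 9 and on the other strand in 14 of the thresholded members, against 147 and 168 of the remaining ones. Both strands were thus represented. The 12 thresholded members at snoRNA or snRNA genes lay mostly in short introns, with a median length of 395.5 bp (267 to 4003).

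**Figure D2:**
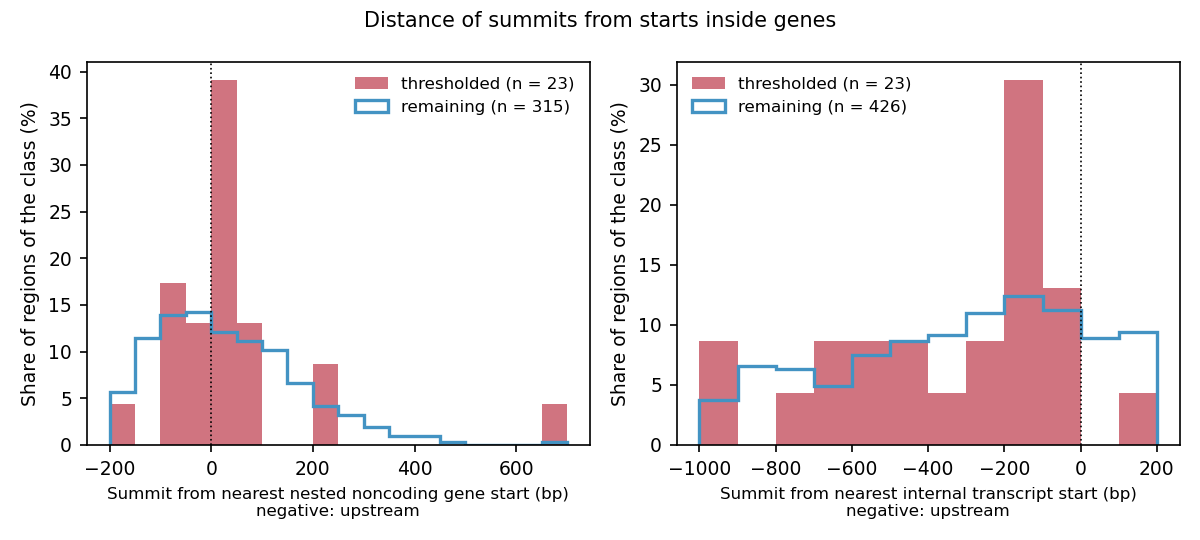
Distance in bp from the nearest start of a nested noncoding gene (left) and from the nearest internal transcript start (right) to the summit, as a share (percent) of the regions of each class that met the respective rule. In the left panel 19 of the 23 thresholded members lie within 100 bp of the start, and in the right panel most thresholded members lie upstream, with a median of -220 bp.

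Internal transcript starts accounted for another 23 thresholded members, 6 of which were also at a nested noncoding gene. A start was internal when a protein-coding transcript began more than 200 bp inside its own gene, and a summit was counted from 1000 bp upstream to 200 bp downstream of it. The share was 32.4% of thresholded members, against 12.3% (426) of remaining members and 8.87% of the bases. In the single replicates it was 25.6% against 10.7% in replicate 2 and 22.4% against 10.1% in replicate 1. Within the window, the median summit was at -220 bp (range -998 to 120) in thresholded members and at -260 bp in remaining members. The classes therefore differed in how often they were near an internal start more than in where they sat. With only 200 bp either side of the start counted, the shares were 15.5% and 5.16%.

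The strongest of these was in scc-2, whose product loads cohesin onto chromosomes. It had a signal value of 57.2 at chrII:255222-255485, with 26.1 in replicate 1 and 29.2 in replicate 2, and its summit was at -158 bp from a transcript start that lies 8467 bp into the gene. egl-30, given above, had the next value. In tba-2, an alpha-tubulin gene, a region with 44.7 lay at -220 bp from an internal start, with 12.04 in replicate 1 and 33.7 in replicate 2. All 3 were among the strongest 537 regions of each replicate. Then followed T28B11.1 and zfp-1, with 37.2 and 35.5. The gene zfp-1 encodes a zinc-finger protein related to human AF10, and its summit was at -726 bp from a start that lies 11284 bp into the gene. T24B8.3, pcyt-2.1 and unc-108, the Rab2 GTPase gene, came next with 34.6, 31.2 and 31.1, at -458, -337 and -558 bp.

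The other 31 thresholded members (43.7%) were at neither kind of start, against 2775 remaining members (79.9%) and 85.9% of the bases. Of these, 26 were intronic, and the 22 of them in an intron of the transcript with the longest coding sequence lay in introns with a median length of 4605 bp. The strongest intronic one was in Y111B2A.12, with 56.3 at chrIII:12612555-12612818 in an intron of 7076 bp, with 12.4 in replicate 1 and 47.1 in replicate 2. Next by signal were pqn-41 with 46.98, K11D2.4 with 42.7, mdt-26 with 41.4 and C35B1.2 with 37.8. They were followed by larp-1, which encodes a La-related RNA-binding protein, with 34.98, and gei-4 with 34.1. Of these, 3 were outside the strongest 537 of replicate 1: larp-1 ranked 734, mdt-26 ranked 1352 and gei-4 was not listed.

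A pair of short sequences recurred in the windows away from nested genes. The repeat GAGAGAGA, searched on both strands within 100 bp of the summit, was in 19 thresholded members (26.8%), against 102 remaining members (2.94%). It was in 4.58% of all pooled regions and in 7.56% of thresholded regions at autosomal promoters. No share is given here for thresholded intergenic regions or for gene bodies on X, so the repeat is not shown to be particular to autosomal gene bodies. The 19 lay in 18 host genes, with the longest uninterrupted repeat between 8 and 29 bases and a median of 11. The nearest match was within 50 bp of the summit in 12 of the 19. Introns over 3000 bp held 11 of them, which was 44% of the 25 thresholded members in such introns, against 41 of 468 remaining members (8.76%).

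The 9-base sequence CTGCGTCTC, with its reverse complement, was also in 19 thresholded members (26.8%), against 76 remaining members (2.19%). It was picked after the windows had been read, so it is a description of these windows and gets no test. Among all 9-base sequences in the thresholded windows, it tied for the highest count with AGACGCAGA, which overlaps its reverse complement. The next was AGAGAGAGA, with 16. The 2 sequences can overlap in their shared letters, but they were mostly in different regions, with 7 thresholded members holding both. The match to CTGCGTCTC was between 4 and 95 bp from the summit, with a median of 42, and 2 members held 2 matches.

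Outside gene bodies the 9-base sequence was also more frequent in thresholded regions. It was in 23 of 59 thresholded autosomal intergenic regions (39.0%), against 73 of 1399 remaining ones (5.22%). In autosomal promoter windows it was in 39 of 291 (13.4%), against 137 of 1973 (6.94%), and in gene bodies on X in 4 of 19 (21.1%), against 7 of 802 (0.873%). Elsewhere on X it was in 10 of 56 (17.9%), against 10 of 350 (2.86%), in promoter windows, and in 4 of 41 (9.76%), against 13 of 529 (2.46%), in intergenic sequence. Among thresholded regions, autosomal intergenic sequence thus had the highest share and X intergenic sequence the lowest, so the order of the places differed between the autosomes and X.

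Neither sequence was common at nested noncoding genes. GAGAGAGA was in 1 of the 23 thresholded members at a nested gene, that in pqn-87, which was named after its values were seen, and CTGCGTCTC was in 0 of the 23. Of the 17 at an internal transcript start only, 5 held GAGAGAGA and 7 held CTGCGTCTC. Of the 31 at neither kind of start, 13 held GAGAGAGA and 12 held CTGCGTCTC, and 19 (61.3%) held at least 1 of the 2, against 110 of 2775 remaining members (3.96%). The 23 regions at nested genes and the other thresholded regions therefore differed in these sequences. Only 12 of the 71 thresholded members (16.9%) had no nested gene, internal start or match to either sequence, against 2665 remaining members (76.8%). Because CTGCGTCTC was picked for its count in these same 71 windows, the contrasts that include it are partly set by that choice. They describe these windows and do not account for the members.

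**Figure D3:**
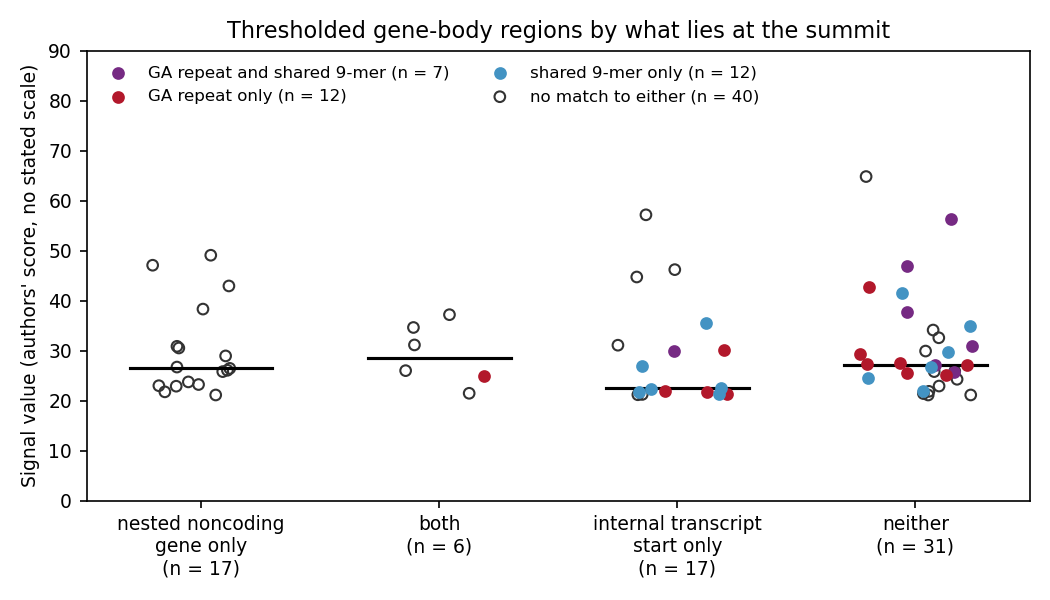
Signal value of each of the 71 thresholded members (vertical axis, the authors' score) by what lies at the summit, with black lines at the medians. Filled points hold a match to the GA repeat, to the shared 9-base sequence or to both, and only 1 of them, in pqn-87, stands among the 23 at a nested noncoding gene.

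The windows of thresholded members were rich in G and C. The GC content of the summit with 100 bp on either side was 50.4% ± 5.81 (SD over 71 regions), against 38.4% ± 7.22 over the 3472 remaining members. In introns alone the means were 50.8% and 37.4%, although intronic bases that meet the rule hold 32.1% GC, less than the 41.4% of exonic ones. The thresholded members were thus mostly in the part of the gene with less GC, at places where GC was high. Thresholded autosomal intergenic regions had a similar mean of 49.9%, and thresholded autosomal promoter regions one of 44.5%. With each replicate alone the difference was 12.7 percentage points in replicate 2 and 6.4 in replicate 1.

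**Figure D4:**
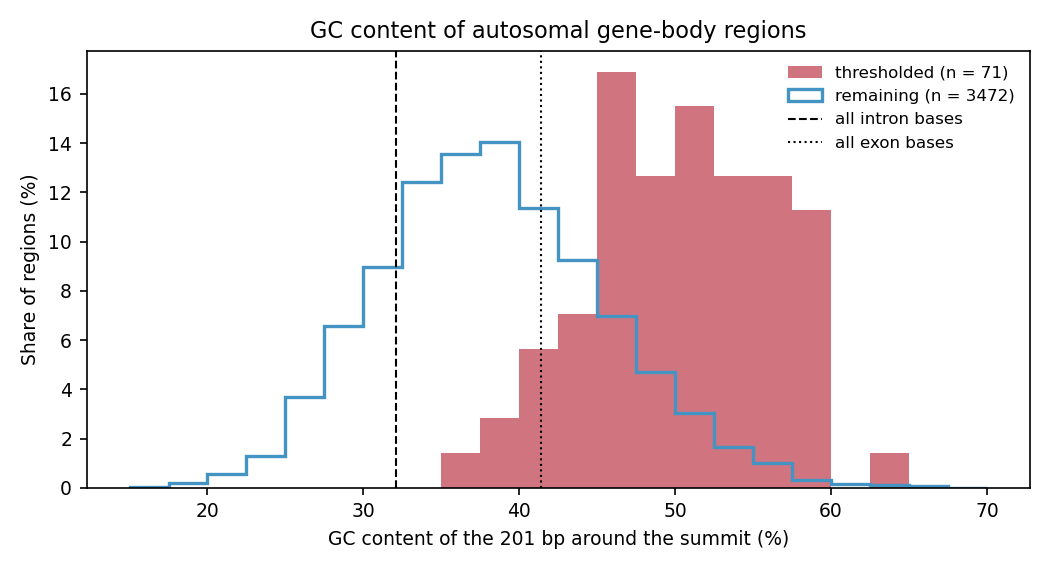
Distribution of GC content (horizontal axis, percent of the bases within 100 bp of the summit) in thresholded and remaining members, as a share of each class (vertical axis, percent). The thresholded members centre near 50.4% and the remaining members near 38.4%, with vertical lines for all intronic (32.1%) and exonic (41.4%) bases that meet the rule.

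The share of thresholded members rose with GC content. It was 0% (0 of 1172) below 35% GC, 0.312% from 35 to 40%, 1.24% from 40 to 45%, 4.93% from 45 to 50%, 10.9% from 50 to 55% and 23.7% (18 of 76) above that. Among regions of like GC, the intronic share was higher in thresholded members in both ranges that held the most of them. It was 90.5% of 21 thresholded members against 48.1% of 405 remaining members between 45 and 50% GC, and 95% of 20 against 55.8% of 163 between 50 and 55%. GAGAGAGA was in 5 of 21 against 26 of 405 (6.42%) in the first of these ranges, in 8 of 20 against 17 of 163 (10.4%) in the second and in 11.1% against 6.9% above 55% GC. CTGCGTCTC was in 8 of 21 against 25 of 405 (6.17%), and in 5 of 20 against 13 of 163 (7.98%). For nested noncoding genes the classes were closer, with 28.6% against 16.3% and 30% against 23.3%, and above 55% GC the shares were 61.1% of 18 and 13.8% of 58. The shares at internal transcript starts were 11.1% against 14.1% from 40 to 45% GC, 33.3% against 14.1% from 45 to 50%, 20% against 18.4% from 50 to 55% and 55.6% against 20.7% above that, so the difference was small or of the other sign in 2 of these 4 ranges. The part of GC content in these results was not tested beyond these ranges.

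Other short sequences differed less. GGGCGG was in 10 thresholded members (14.1%), against 186 remaining ones (5.36%), and the E-box CACGTG was in 7.04% against 4.61%. CAGCTG was in 4.23% against 4.41%, and ATCGAT in 9.86% against 7.98%. TATAAA was in 7.04% against 16.9%, TTTTTTTT in 7.04% against 19.1% and the GATA-type site AGATAA in 7.04% against 10.7%. TAATTA, a core of homeodomain sites, was in 0 of 71 thresholded windows, against 277 remaining ones (7.98%), 7.76% of all pooled regions and 7.56% of thresholded regions at autosomal promoters. Among windows of at least 45% GC, it was in 0 of 59 against 9 of 626 (1.44%), a share too low for a difference to be seen in 59 windows. No match says only that these letters were not in the window.

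The thresholded members lay in 63 of the 2544 host genes of any member (2.48%). In 5 host genes there were 2 or more, 13 members in all. The gene pqn-41, which encodes a glutamine- and asparagine-rich protein, held 4, all in 1 intron of 10372 bp, with signal values of 29.9, 32.6, 46.98 and 27.2 from the start of the gene towards its end. In replicate 2 these had 19.6, 30.02, 35.7 and 17.8, and in replicate 1 they had 15.7, 3.86, 13.8 and 5.18, so only the first and the third were among the strongest 537 of both. The gene zfp-1 held 3 with values from 25.9 to 35.5, and mnk-1, let-526 and Y43F8B.2 held 2 each. Of the host genes with the most members, mnk-1 held 11, of which 2 were thresholded. The genes hlh-30 and fkh-7, which encode transcription factors of the helix-loop-helix and forkhead families, held 10 members each and 0 thresholded ones, a count near what the 2% share of all members gives.

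Host genes were counted in 10 hand-written lists, which are not complete, so that a count says nothing of genes outside its list. For example, let-526, mnk-1 and unc-108, described above as a chromatin remodelling, a kinase and a Rab gene, are in none of them. Each count is given as thresholded hosts out of hosts with any member, beside the 2.48% of all hosts. Genes of the nervous system and ion channels gave 4 of 58 (6.9%), egl-30, twk-5, unc-33 and rab-3, the last 2 of which act in axon growth and synaptic vesicle release. The list of kinases, receptors and GTPase regulators gave 4 of 54 (7.41%), ckk-1, pde-4, par-1 and kin-1, which encode a calmodulin kinase kinase, a cyclic AMP phosphodiesterase, a polarity kinase and the catalytic subunit of protein kinase A. RNA-binding genes gave 3 of 28 (10.7%), larp-1, rbm-34 and hrpk-1, and the membrane traffic list 3 of 33 (9.09%), vps-25, epg-9 and rab-3. In rbm-34 the summit was at the nested snoRNA gene F11A10.9. Counts of 2 to 4 hosts are too small to set 1 list apart from another.

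Transcription factor genes gave 3 of 91 (3.3%): mef-2 and zip-2, which encode MADS-box and bZIP factors, and skn-1, which encodes the Nrf-related regulator of oxidative stress responses. In skn-1 the summit lay inside the nested gene T19E7.26. Extracellular matrix genes gave 2 of 34 (5.88%), pxn-1 and cutl-18, and in both the summit was at a nested snoRNA gene. Cytoskeleton genes gave 2 of 44 (4.55%), tba-2 and frm-7. The muscle list gave 0 of 17, the translation and folding list 0 of 25 and the chromatin list 0 of 31, and let-526, with 2 thresholded members, is not on the chromatin list. The remaining 43 thresholded host genes were in none of the lists.

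The members were spread over the 5 autosomes, with 16 thresholded members on I, 16 on II, 19 on III, 10 on IV and 10 on V. The remaining members had 700, 623, 696, 685 and 768 in the same order. No chromosome held most of the thresholded members.

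At unc-119, which the genotype names, and ceh-82, which the labels give as the target, 1 thresholded region was found. Within 20 kb of ceh-82 (chrII:1732232-1733291) there was 1 pooled region, in fbxb-48, with a signal value of 11.1 and not thresholded, and none lay in ceh-82 itself. In unc-119 (chrIII:10902641-10908935), which encodes a lipid-binding chaperone needed in neurons, there were 3 pooled regions, with values of 7.43, 29.3 and 9.58. The middle one was thresholded, had 7.53 in replicate 1 and 19.2 in replicate 2, and lay in the first intron, of 3747 bp, over the GA repeat printed above. Whether the transgene carries sequence of either locus is not stated in the labels. The part of the transgene in this region was not tested.

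Replicate 2 followed the thresholded list more closely than replicate 1. Within 100 bp of the summit, 61 of the 71 thresholded members had a summit in the replicate 1 list, 70 in that of replicate 2, and 60 in both, and none was missing from both. Each of these lists held 30000 regions, background included, so being listed says little by itself. In replicate 1, 14 thresholded members ranked above 2000, that is, weaker than the first 2000. For remaining members the counts were 1952, 2512 and 1186 of 3472. The strongest 537 regions of replicate 1 included 33 thresholded members, those of replicate 2 included 59, and 28 were in both. Across the 60 thresholded members in both lists, Spearman's rho between the signal values was 0.16 and Pearson's r 0.21, as a description of regions that were chosen on both replicates together. The order of signal values among the members was therefore poorly shared between the replicates.

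The 28 members strong in both replicates are set beside the other 43. Introns held 25 (89.3%) of the 28, against 38 (88.4%) of the 43, and nested noncoding genes were near 10 (35.7%), against 13 (30.2%). Internal transcript starts were near 12 (42.9%), against 11 (25.6%), and GAGAGAGA was in 10 (35.7%), against 9 (20.9%). CTGCGTCTC was in 7 (25%) of the 28, against 19 (26.8%) of all 71, so it was not more frequent in the 28. The intronic shares were thus close, and the shares at internal starts and with GAGAGAGA were higher in the 28, differences that were not tested. Their mean GC content was 50.9% ± 5.48 (SD over 28 regions), against 50.1% ± 6.06 over the other 43. Most windows of both classes were unique in the genome. In 66 of the 71 thresholded windows (93.0%) every 32-base stretch occurs once in the genome, against 3198 of the 3472 remaining windows (92.1%). In the RefSeq sequence, which marks masked bases in lower case, 15.2% of the bases of thresholded windows were masked on average, against 27.9% in remaining windows, and 19 (26.8%) against 480 (13.8%) windows held no masked base. The part of masked sequence in the results was not tested.

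**Figure D5:**
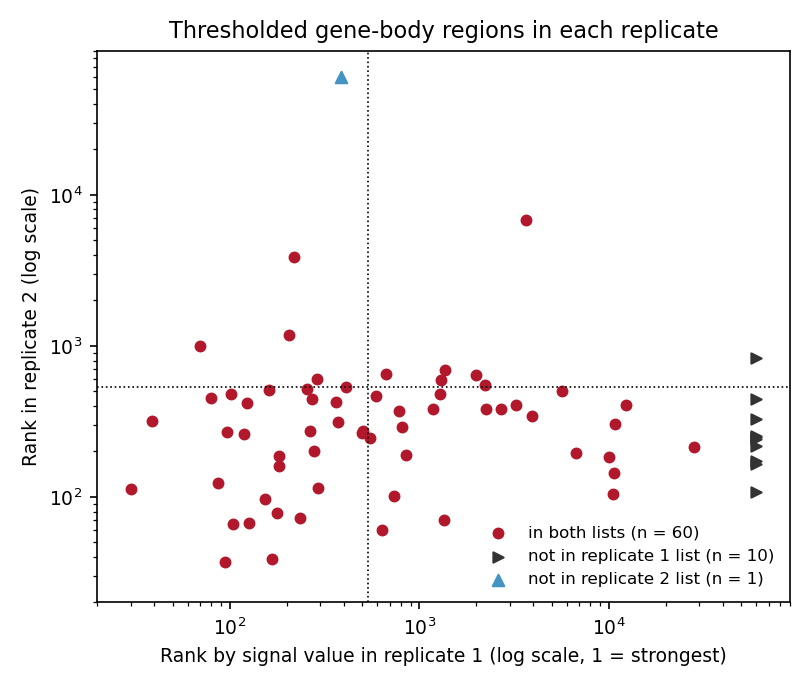
Rank by signal value of each thresholded member in the replicate 1 list (horizontal) and the replicate 2 list (vertical), both on log axes with 1 the strongest, with dotted lines at rank 537. The lower left field holds the 28 members strong in both, and the 10 members missing from replicate 1 and the 1 missing from replicate 2 are drawn at the edges.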

How the data were processed

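Peak lists of ChIP-seq in 2 replicates were used. The deposited lists are the authors' peaks and background of each replicate, and the same of both replicates pooled. The thresholded list holds the pooled regions kept by their threshold on the irreproducible discovery rate. All were made against a control alignment, per the text file deposited with each sample. Which aligner, peak caller and threshold value they used is not given in the sources used here. The signal value is a score deposited by the authors with no stated scale. The significance column deposited by the authors is the −log10 of a q-value. Its median was 2.933 in thresholded members and 0.0958 in remaining members, and it was not otherwise compared between classes. Coordinates are on ce11, and lists on ce10 were not used here.

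Summits were annotated with Ensembl release 115 genes and RefSeq sequence of the same assembly (WBcel235), using Python 3.11.15, pandas 2.3.3, numpy 2.4.6 and scipy 1.17.1. The host was the shortest protein-coding gene that holds the summit. The class assignment was tested on simulated positions. Regions are not replicates, so shares are given with no test, beside all bases that meet the rule and each replicate alone. Members, lists and motifs were chosen with earlier results of these data known. Named genes are the 20 strongest thresholded members, the 5 strongest in exons, those with several members per host, the strongest 10 at nested genes, 8 at internal starts and 4 per list, and those next to the threshold. A single one of these regions is not reported here. Alternatives were other promoter windows, gene starts, exon definitions, distances, sequence windows and thresholds, and each replicate alone.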

Additional observations from a re-analysis of the deposited data

How the results depend on the processing

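No difference between the classes reversed under any alternative run. The count of thresholded members and their own intronic share cannot reverse and bear on size only. Of all 62 alternative values, 49 moved by less than the SD between the 2 replicates (for counts, by less than 1.5 times). The single-replicate values set this SD and are among the 62, so replicates that differ more leave more values counted as unmoved. For nested noncoding genes the SD was 12.9 points, and 10.9 points in replicate 1 against 23.3 counted as unmoved. The count of 49 is therefore no measure of how stable the results are. The 71 thresholded members became 47 when windows at the starts of genes of every kind were left out and 30 with the stronger 50% of the thresholded list. Windows at starts of every kind also took the difference in nested noncoding genes to 5.08 percentage points, against 23.3, since they leave out most sequence around nested genes. The difference at internal transcript starts, 20.1 points, became 16.6 with windows of 2000 bp upstream to 500 bp downstream left out, 28.5 with windows at starts of genes of every kind, 10.3 within 200 bp either side of the start, and 15.8 in intron members only, an alternative added after the data were seen. The cause of these shifts was not tested, apart from that by construction.

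With each replicate alone, the thresholded members numbered 86 to 107, their intronic share was 72 to 86%, and the differences were 18 to 31 points in introns, 10.9 to 29.1 at nested noncoding genes, 12.3 to 14.8 at internal starts and 6.4 to 12.7 in GC percent, with replicate 1 lower for each share and for GC. Leaving out windows at the starts of every protein-coding transcript gives no value for internal starts. No paired analysis was possible because the series has 1 group and no test between groups. Depth is unknown, and the lists hold no reads.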
